A study of Mus musculus with 6 samples.

Results

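The Snrpn, Ube3a and Ndn imprinted domain of the mouse was taken as chr7:66400001-69700000 of build mm9, a stretch of 3.3 Mb on chromosome 7. It comprised 330 windows of 10 kb out of 264198 in the genome and was set against the 2 Mb on each side, 200 windows before it and 200 after it. The genes it was chosen for are Snrpn, Ube3a, Ndn, Magel2 and Mkrn3. Windows of 1 kb were examined at 4 loci, 6 at each: the Snrpn control region (chr7:67146001-67152000), Ndn (chr7:69490001-69496000), Magel2 (chr7:69518001-69524000) and Mkrn3 (chr7:69559001-69565000). These positions were given with the choice of the domain. No mm9 annotation was used here, so exons, introns and transcription starts were not placed, Ube3a has no window of its own, and whether it lies wholly inside the domain was not tested.

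The libraries came from C57Bl/6 mouse embryonic stem (ES) cells, cultured with leukaemia inhibitory factor and no feeder layer, and no group carried a further allele or treatment. Chromatin immunoprecipitation (ChIP) with a home-made rabbit antibody recovered the histone variant H2A.B in 1 library, with 1 rabbit IgG library as its control. Methylated DNA immunoprecipitation (MeDIP) with a mouse antibody recovered 5-methylcytosine (5mC) in 3 libraries, with 1 mouse IgG library as control. Nothing in the labels ties the 3 5mC libraries to separate cultures, so their spread may be technical, and genomic reads give no check of the cell label.

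Imprinted genes are expressed from the copy of one parent only. In this domain an imprinting control region at the Snrpn promoter is methylated on the maternal copy and unmethylated on the paternal copy. Snrpn, Ndn, Magel2 and Mkrn3 are expressed from the paternal copy, while Ube3a is expressed from the maternal copy in neurons, where a long antisense transcript from the Snrpn side silences the paternal one. H2A.B is a short histone H2A variant that gives less stable nucleosomes and is known for its association with active genes.

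MeDIP recovers methylated cytosines, which in most mammalian DNA stand before a guanine, so the promoters are shown with each such CG pair in capitals. The sequences are those of RefSeq on build GRCm38.p6, each from 250 bases before to 50 after a transcription start, 5′ to 3′. All 5 genes were found in that table, Snrpn with 4 starts and the others with 1. Coordinates of GRCm38.p6 cannot be set against the mm9 positions of the reads. For Snrpn the first and the last of the 4 starts in the direction of transcription are shown, since they differ most in their number of CG pairs.
Snrpn, first start (GRCm38.p6 chr7:60450128-60450427, minus strand): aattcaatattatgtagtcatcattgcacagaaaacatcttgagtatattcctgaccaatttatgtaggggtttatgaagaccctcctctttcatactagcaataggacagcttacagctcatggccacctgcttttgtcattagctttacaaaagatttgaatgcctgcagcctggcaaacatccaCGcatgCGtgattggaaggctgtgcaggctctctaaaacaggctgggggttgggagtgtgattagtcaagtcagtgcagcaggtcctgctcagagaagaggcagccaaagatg
Snrpn, last start (GRCm38.p6 chr7:60005150-60005449, minus strand): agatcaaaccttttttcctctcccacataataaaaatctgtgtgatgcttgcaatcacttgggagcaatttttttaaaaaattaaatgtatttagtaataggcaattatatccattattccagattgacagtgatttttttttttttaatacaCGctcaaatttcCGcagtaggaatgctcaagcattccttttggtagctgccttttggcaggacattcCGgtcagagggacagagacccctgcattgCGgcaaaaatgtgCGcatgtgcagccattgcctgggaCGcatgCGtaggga
Ube3a (GRCm38.p6 chr7:59228500-59228799, plus strand): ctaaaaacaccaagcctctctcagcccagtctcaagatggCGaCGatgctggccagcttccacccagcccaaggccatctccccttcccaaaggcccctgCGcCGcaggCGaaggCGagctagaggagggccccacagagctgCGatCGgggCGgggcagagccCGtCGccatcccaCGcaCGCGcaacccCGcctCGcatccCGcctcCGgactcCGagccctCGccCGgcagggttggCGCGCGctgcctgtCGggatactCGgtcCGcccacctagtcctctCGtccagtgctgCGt
Ndn (GRCm38.p6 chr7:62348027-62348326, plus strand): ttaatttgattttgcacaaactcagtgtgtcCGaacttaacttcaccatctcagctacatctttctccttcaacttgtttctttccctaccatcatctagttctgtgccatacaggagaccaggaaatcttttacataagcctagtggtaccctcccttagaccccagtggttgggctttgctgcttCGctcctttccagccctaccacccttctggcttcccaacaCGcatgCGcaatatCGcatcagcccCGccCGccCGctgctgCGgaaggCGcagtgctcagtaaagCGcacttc
Magel2 (GRCm38.p6 chr7:62376729-62377028, plus strand): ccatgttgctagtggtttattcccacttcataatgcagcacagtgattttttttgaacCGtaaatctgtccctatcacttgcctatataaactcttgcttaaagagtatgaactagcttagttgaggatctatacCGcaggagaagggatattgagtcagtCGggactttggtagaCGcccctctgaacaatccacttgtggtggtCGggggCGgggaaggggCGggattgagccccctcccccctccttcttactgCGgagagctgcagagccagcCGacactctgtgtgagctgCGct
Mkrn3 (GRCm38.p6 chr7:62420104-62420403, minus strand): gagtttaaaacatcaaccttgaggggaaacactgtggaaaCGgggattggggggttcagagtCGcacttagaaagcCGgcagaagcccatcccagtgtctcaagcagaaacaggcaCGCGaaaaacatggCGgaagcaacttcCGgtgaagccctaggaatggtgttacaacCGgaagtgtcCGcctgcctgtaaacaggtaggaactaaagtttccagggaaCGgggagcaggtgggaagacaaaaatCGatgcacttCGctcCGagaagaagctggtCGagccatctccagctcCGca

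The number of CG pairs in these 300 bases differed widely between the genes. Ube3a, which encodes a ubiquitin ligase, had 29, a number that only 12.9% of the 32851 promoters in the table reached, against a median of 7. Mkrn3, a makorin RING-finger protein, had 15 (reached by 34.6% of promoters). Ndn, the MAGE family protein necdin, had 11 (41.4%), and Magel2, another MAGE family member, had 10 (43.5%). Snrpn, which encodes a small nuclear ribonucleoprotein, had 2, 3, 4 and 7 at its 4 starts. The first 3 of these starts were 79.7% to 81.4% identical to one another, while the last start was 50.6% to 52.9% identical to them. The 8 letters CGCATGCG, which read the same on both strands, stood at all 4 Snrpn starts and at Ndn, 5 of the 8 starts, and in 1.87% of all promoters. The motif was picked after the sequences were read, and a match is a description of the letters only. At Snrpn it began at base 188 in the first sequence and at base 287 in the last, and at Ndn at base 228.

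The libraries differed greatly in depth. Counting each chromosome, 5′ position and strand once (distinct reads), H2A.B ChIP held 8053559 reads, IgG ChIP 539303, the 5mC libraries 1396972, 1893285 and 803580 in replicates 1 to 3, and IgG MeDIP 124157. H2A.B and 5mC replicate 1 came from one flow cell with reads of 42 bp, the other 4 libraries from a second flow cell with reads of 50 bp. Between H2A.B and its control, antibody, flow cell and read length all changed together and cannot be told apart. The description of each IgG library lists the H2A.B antibody, but its title and antibody entry say IgG and were followed.

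Reads of every library were sparse over the domain. H2A.B had 6664 distinct reads in it and IgG ChIP had 527. The 5mC replicates 1 to 3 had 978, 1310 and 901, and IgG MeDIP had 59. The median 10 kb window held 16 reads of H2A.B against 27 in the genome. For 5mC the medians were 1.5, 3 and 2 reads against 3, 5 and 3 in the genome, and for IgG ChIP 1 against 2. IgG MeDIP had no read in 286 of the 330 windows. Of the 3300 windows of 1 kb, 467 (14.2%) held no read of any library, against 8.52% of the genome.

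Read density in the domain was below that of its flanks in all 6 libraries. H2A.B reached 0.703 times the density of the flanks (95% interval 0.682 to 0.725). The 5mC libraries reached 0.667, 0.738 and 0.834 times, a mean of 0.747 ± 0.0839 (SD, n = 3). The controls were as low, at 0.753 (0.674 to 0.841) for IgG ChIP and 0.559 (0.403 to 0.766) for IgG MeDIP. The intervals are exact, from the binomial share of reads, and cover counting error only. H2A.B and the 5mC mean thus lay inside the intervals of their own controls.

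The difference came from one side more than the other. Against the 2 Mb before the domain the folds were 0.945 (0.909 to 0.982) for H2A.B, 0.964 ± 0.128 (SD, n = 3) for 5mC and 0.870 (0.760 to 0.997) for IgG ChIP. There 5mC replicates 1 and 2 were below 1, at 0.898 and 0.882, and replicate 3 above it, at 1.11 (0.995 to 1.24). Against the 2 Mb after it they were 0.560 (0.541 to 0.579), 0.611 ± 0.0715 and 0.664 (0.586 to 0.753). IgG MeDIP followed the same order, with 0.715 (0.482 to 1.06) and 0.458 (0.321 to 0.651). The flank after the domain held windows that were dense in some libraries only. At chr7:71630001-71640000, 5mC replicates 1 to 3 had 2, 11 and 90 reads, H2A.B 198 and IgG ChIP 30. The windows chr7:71610001-71620000 and chr7:71620001-71630000 were alike, with 74 and 71 reads of replicate 3 and 1 and 0 of replicate 1. These reads enter the folds against that flank. With only 1 Mb on each side the folds were 0.945 for H2A.B, 0.910 ± 0.158 for 5mC, 0.852 for IgG ChIP and 0.872 for IgG MeDIP. A further run left out 10 kb windows over 10 times the median of a library, in the domain and both 2 Mb flanks. It gave 0.732 for H2A.B, 0.829 ± 0.146 (SD, n = 3) for 5mC, 0.807 (0.720 to 0.904) for IgG ChIP and 0.565 for IgG MeDIP.

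**Figure D1:**
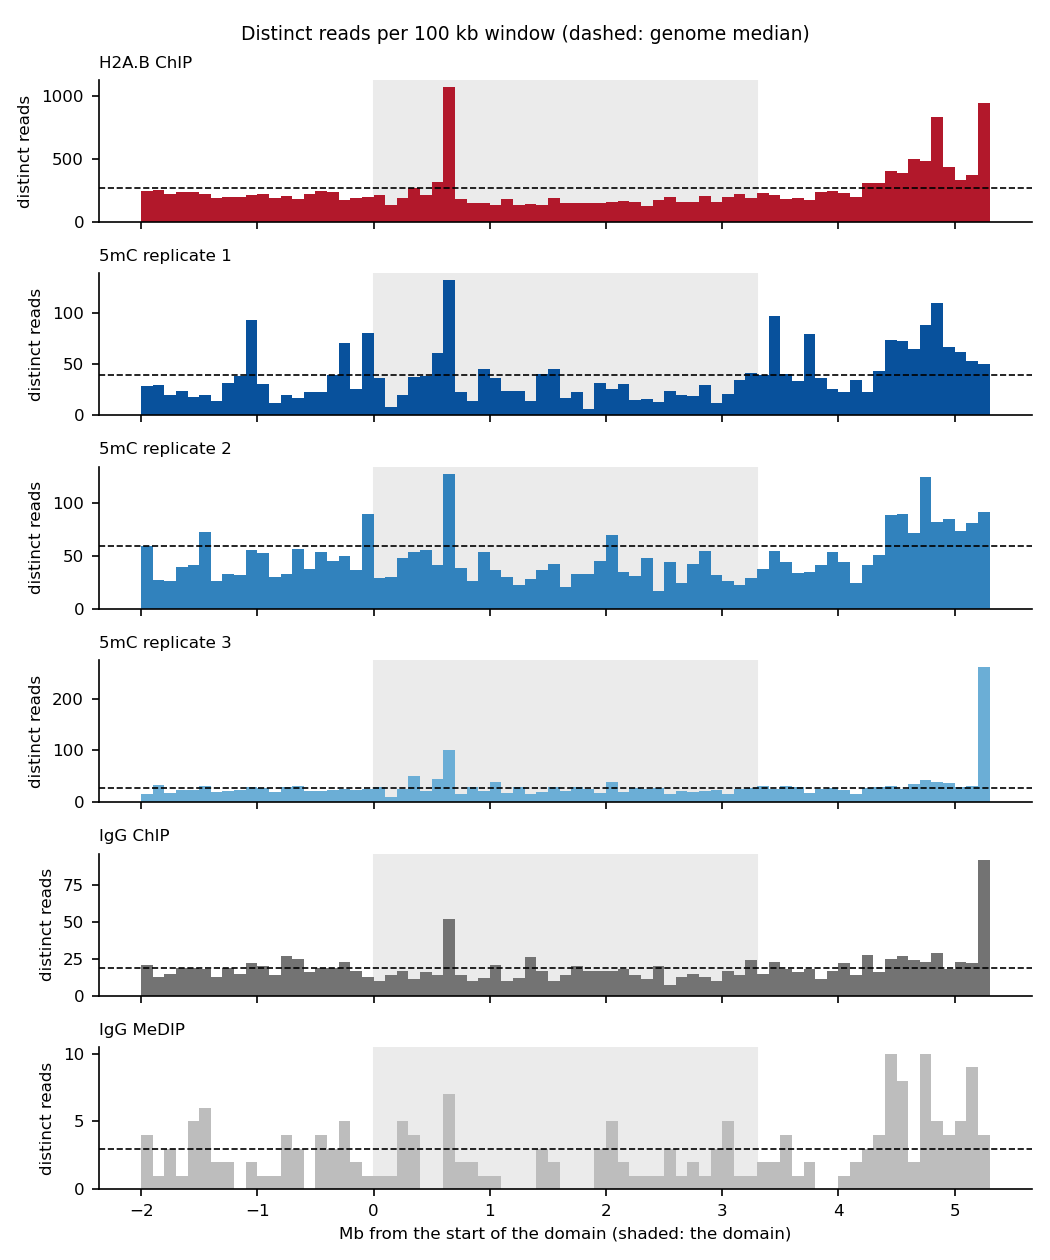
Distinct reads per 100 kb window in each library (y axis) against distance in Mb from the domain start (x axis), with the domain shaded and the genome median dashed. All 6 libraries have their highest window of the domain at the same place, 0.6 to 0.7 Mb in, with 1072 reads for H2A.B, 52 for IgG ChIP, 132, 128 and 100 for the 5mC replicates and 7 for IgG MeDIP.

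Within the domain the reads peaked at one place in every library. The 100 kb window chr7:67000001-67100000 held 1072 reads of H2A.B, against a domain median of 160. It held 132, 128 and 100 reads of the 5mC replicates, against medians of 24, 35 and 25. IgG ChIP had 52 there against a median of 14, and IgG MeDIP 7 against 1. The controls thus shared the peak with both antibodies.

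At finer scale this peak was one side of a pair. A stretch of 50.3 kb, chr7:66951937-67002248, held no read of any library. It was bounded by read-dense stretches at chr7:66925001-66951936 and chr7:67002249-67051000, together 75.7 kb. These stretches were picked after the values were seen, by extending outward from the empty stretch until 5 windows of 1 kb in a row held under 2 times the domain's mean of H2A.B, so their densities are a description. H2A.B had 16.8 reads per kb there, 9.92 times the rest of the domain (9.33 to 10.5). The 5mC replicates had 2.29, 2.01 and 1.76 reads per kb, 9.01, 5.50 and 7.26 times the rest (mean 7.26 ± 1.75, SD, n = 3). IgG ChIP had 0.727 reads per kb, 4.89 times the rest (3.63 to 6.47), and IgG MeDIP 0.0925, 5.65 times (2.16 to 12.5).

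**Figure D2:**
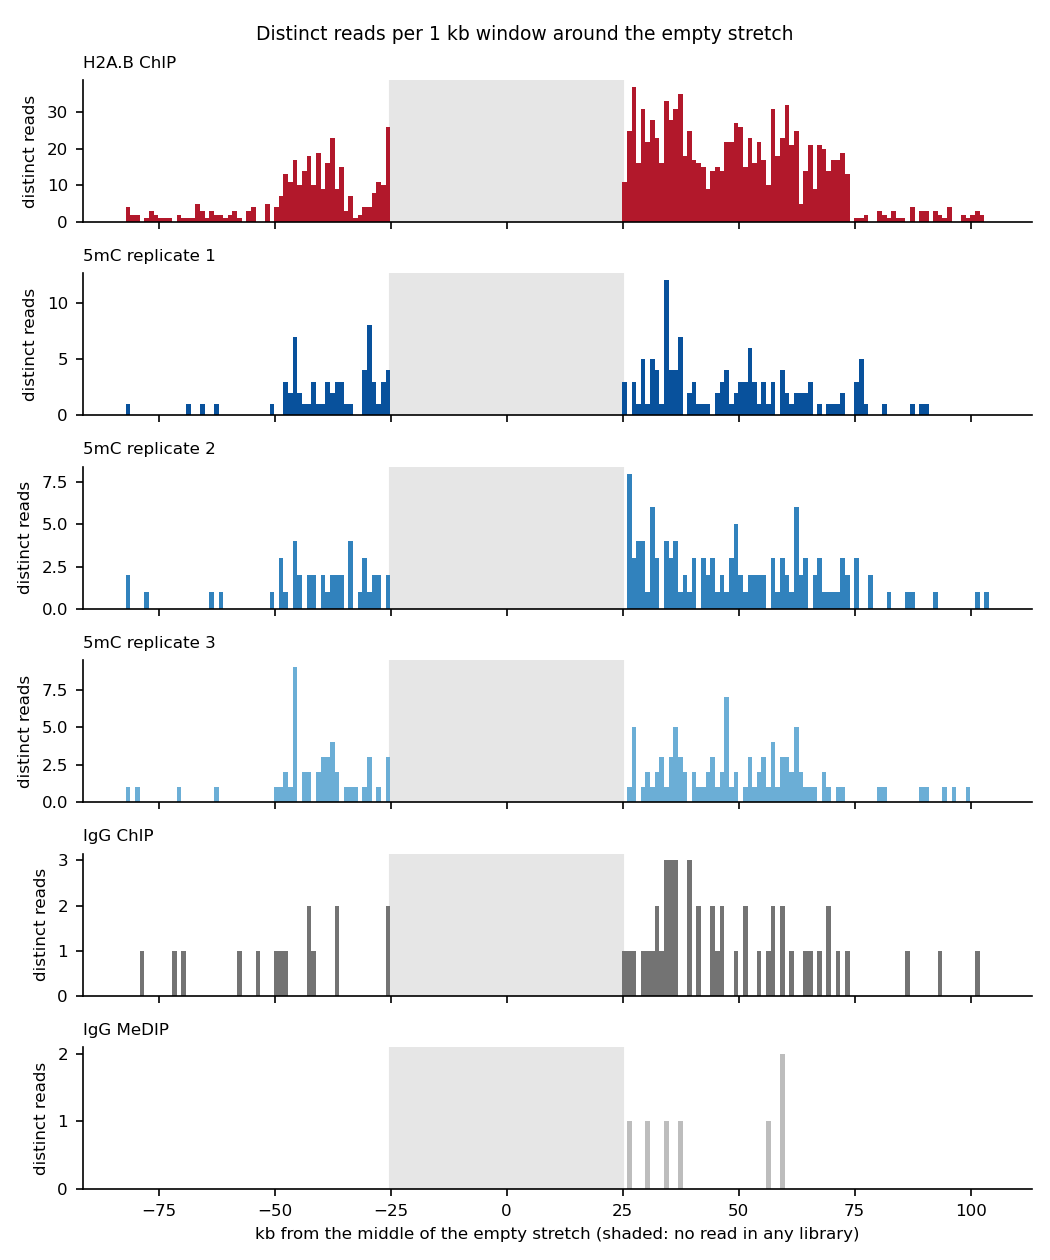
Distinct reads per 1 kb window in each library (y axis) against distance in kb from the middle of the empty stretch, which is shaded and 50.3 kb wide. Reads rise on both sides of it in H2A.B, all 3 5mC libraries and IgG ChIP, the last at 2.50 and 6.21 times the rest of the domain. IgG MeDIP has 7 reads on the right side and 0 on the left, where a count of 0 allows up to 3.

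**Figure D3:**
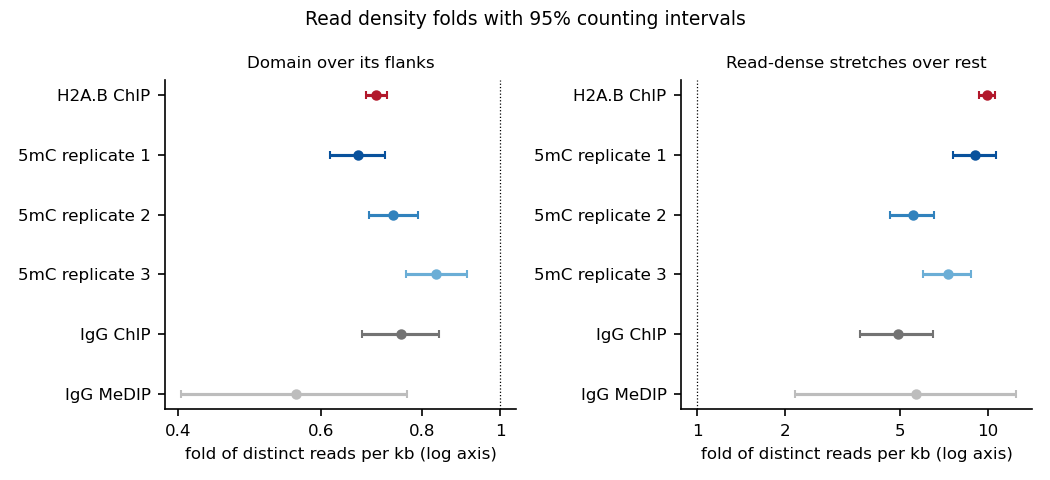
Fold of distinct reads per kb (log axis) for each of the 6 libraries, with 95% counting intervals; left, the domain over its flanks, right, the read-dense stretches over the rest of the domain. All 6 libraries lie below 1 on the left (0.559 to 0.834) and above 1 on the right (4.89 to 9.92).

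The later of the 2 stretches was the denser for H2A.B, at 20.5 reads per kb against 10.2 in the earlier. IgG ChIP had 0.923 against 0.371. The 5mC replicates had 2.36 against 2.15, 2.32 against 1.45 and 1.85 against 1.60 reads per kb. IgG MeDIP had 7 reads in the later stretch and 0 in the earlier, where a count of 0 allows up to 3. Over both, H2A.B stood at 1.55 times IgG ChIP in CPM, that is, relative to the total of distinct reads of each library (1.18 to 2.07). The edges of the stretches were set by H2A.B reads, so this ratio and its interval are a description too. Few reads there were repeated, with 1302 reads of H2A.B at 1275 distinct positions and 177 of 5mC replicate 1 at 173.

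Over the whole domain H2A.B was slightly below its control. It stood at 25.1 CPM per 100 kb and IgG ChIP at 29.6, a ratio of 0.847 (0.775 to 0.927). In the 2 Mb before the domain the ratio was 0.780 (0.701 to 0.870), and in the 2 Mb after it 1.00 (0.916 to 1.10). Without the read-dense stretches, whose edges were set by H2A.B reads, the domain's ratio was 0.765 (0.696 to 0.842). The interval reached 1 with all reads counted, repeated positions included (0.974, 0.896 to 1.06), and when the ratio was divided by that of the flanks (0.933, 0.854 to 1.02).

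By a rule of size, with no test since each group had 1 library, a 10 kb window counted as higher where H2A.B was at least 1.5 times IgG ChIP in CPM with a lower bound above 1, and as lower by the mirrored rule. Windows were tried where the mean CPM of the 6 libraries reached 25% of the genome's median window. In the domain 1 of 307 windows tried was higher, 0.326%, against 0.628% of the genome, and 16 were lower, 5.21%, against 2.67%. The directions were not equally open at this depth. The window chr7:69250001-69260000, with 33 reads of H2A.B and 0 of IgG ChIP, was not called higher. With 6 against 3, chr7:67400001-67410000 was called lower. Outside the read-dense stretches no window of the domain held enough H2A.B reads to be called higher, so the counts cannot be compared between directions. The higher window, chr7:66930001-66940000, lay in the earlier read-dense stretch, with 147 reads of H2A.B and 3 of IgG ChIP (ratio 3.28, 1.10 to 16.1). None of the 16 lower windows lay in those stretches, which were bounded by high H2A.B.

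The lower window with the lowest upper bound was chr7:68410001-68420000, with 26 reads of H2A.B and 11 of IgG ChIP (ratio 0.158, 0.0756 to 0.355). Its 1 kb window chr7:68418001-68419000 held 9 of those 11 IgG reads and 4 of the H2A.B reads. The 5mC replicates had 0, 28 and 17 distinct reads there and IgG MeDIP 2. All 28, 17, 9 and 2 reads of the second flow cell lay on the minus strand within 40, 29, 27 and 22 bp, and replicate 2 had 139 reads at its 28 positions. The pile was thus present in all 4 libraries of the second flow cell, IgG included, and absent from 5mC replicate 1. A rule made after seeing this pile took windows with at least 2 reads in 5mC replicates 2 and 3 and in IgG ChIP and 0 in replicate 1. It gave 2 of the domain's 3300 windows, a share near the 0.0503% of the genome. The other window, chr7:67021001-67022000, lay in the later read-dense stretch. It had 3 and 3 reads of 5mC replicates 2 and 3, 2 of IgG ChIP and 14 of H2A.B.

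The next 4 by upper bound had few reads in either library. The window chr7:67760001-67770000 held 10 reads of H2A.B and 5 of IgG ChIP (ratio 0.134, 0.0417 to 0.499). The window chr7:67890001-67900000 held 16 and 6 (0.179, 0.0664 to 0.557), with 4, 15 and 12 reads of the 5mC replicates and 3 of IgG MeDIP. The windows chr7:67740001-67750000, with 12 and 5 reads, and chr7:66630001-66640000, with 20 and 6, had ratios of 0.161 (0.0527 to 0.582) and 0.223 (0.0865 to 0.679). In 100 kb windows, 0 of 33 were higher, against 9.72% of the genome, and 6 were lower, 18.2%, against 9.53%. All 6 lay outside the read-dense stretches, again bounded by high H2A.B.

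Narrow piles of H2A.B were sought as 1 kb windows with at least 10 reads and at least 4 times the mean density of the 50 kb on each side. The domain had 16 among 3300 windows, 0.485%, against 0.316% of the genome. Of these, 10 lay in the read-dense stretches, next to the empty stretch that enters their surroundings, and the other 6 made up 0.189% of the remaining 3174 windows. A fixed minimum of 10 reads is harder to reach where reads are sparse, as in that remainder, with 1.70 reads of H2A.B per kb. How far this lowered the share was not tested. The 100 kb window chr7:66900001-67000000 held 9 of the 16.

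The 5 maxima with the most reads all belonged to the read-dense stretches, whose edges were set by the same H2A.B reads. The window chr7:67004001-67005000 had 37 reads of H2A.B, with 3, 3 and 5 of the 5mC replicates and 1 of IgG ChIP. The window chr7:66951001-66952000, at the edge of the empty stretch, had 26, and chr7:66939001-66940000 had 23. The windows chr7:66936001-66937000 and chr7:66934001-66935000 had 19 and 18. IgG ChIP had 2, 0, 0 and 2 reads in these last 4, in the same order. Outside the stretches the 6 maxima held 10 to 14 reads of H2A.B and 0 or 1 of IgG ChIP, and 2 of them lay at the loci of Ndn and Magel2.

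For 5mC the reads of the whole domain were compared with IgG MeDIP by limma, fitted over 788 tiles of the genome that were each as long as the domain. After thinning every 5mC library to the depth of IgG MeDIP, the domain held 85, 83 and 135 reads of 5mC and 59 of IgG. The 5mC libraries were thus all above the control, by 0.73 ± 0.40 (SE) on the log2 (CPM + pseudocount) scale, but this did not pass the test (limma, Benjamini-Hochberg adjusted p = 0.81). Over all tiles the median difference was 0.17. Of the 788 tiles, 0 were called higher (0% of the genome) and 2 lower (0.254%), and 44 and 3 had an unadjusted p under 0.05. With the libraries scaled to their median tile, the domain's difference was 0.62 (limma, adjusted p = 0.59), with 2 tiles higher and 3 lower.

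At full depth 5mC replicates 1 to 3 stood at 1.47, 1.46 and 2.36 times IgG MeDIP in CPM over the domain, a mean of 1.76 ± 0.517 (SD, n = 3). The means in the 2 Mb before and after it were 1.29 ± 0.197 and 1.31 ± 0.287. Replicate 3 was the highest of the 3 in the domain and in both flanks. In the flank after the domain its value includes the windows dense in replicate 3 at chr7:71610001-71640000. All 4 MeDIP libraries had fewer reads in the domain than in the median tile. Among the 788 tiles, 132, 102 and 265 were lower than the domain in the 5mC replicates and 76 in IgG MeDIP.

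Windows of 1 kb with at least 2 reads in each 5mC library and 0 in IgG MeDIP numbered 24 in the domain, 0.727% of its windows, against 0.325% of the genome. Of these, 17 lay in the read-dense stretches and 7 outside, the latter 0.221% of the remaining windows. Here too the fixed minimum of reads is harder to reach where reads are sparse. The opposite pattern, at least 2 IgG reads and 0 of 5mC, occurred in 1 window, 0.0303%, against 0.00946% of the genome. Counts of 5mC windows depended on the shallowest library, replicate 3, without which 61 windows passed. With only the first sorted block of the replicate 2 list, 10 passed.

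The 5 windows with the highest mean 5mC level lay in 2 settings. In the read-dense stretches, chr7:66931001-66932000 had 7, 4 and 9 reads of the 5mC replicates (6.11 ± 4.64 CPM, SD, n = 3) and 17 of H2A.B. The windows chr7:67013001-67014000, with 4, 4 and 5 reads (3.73 ± 2.19 CPM), and chr7:67039001-67040000, with 2, 6 and 5 (3.61 ± 2.43 CPM), had 31 and 25 reads of H2A.B. Outside them, chr7:69280001-69281000 had 4, 10 and 4 reads of 5mC (4.37 ± 1.32 CPM) and none of H2A.B, IgG ChIP or IgG MeDIP. Its neighbour, chr7:69281001-69282000, also passed, with 5, 3 and 2 reads of 5mC and 7 of H2A.B. The other one, chr7:68340001-68341000, had 2, 11 and 3 reads (3.66 ± 2.19 CPM) and 3 of IgG ChIP. There all 11 and 3 reads of replicates 2 and 3 and all 3 of IgG ChIP lay on the minus strand, within 81, 6 and 10 bp.

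Between the control region and Ndn, 2338 kb, H2A.B was at its lowest, with 1.59 reads per kb. It had 1.96 in the 620 kb before the control region, the stretches left out, and 2.10 in the 210 kb from Ndn to the domain's end. The long middle part thus had 0.812 times the density of the first (0.761 to 0.867), while IgG ChIP had 1.06 times (0.833 to 1.36) and 5mC 0.928 ± 0.0350 times (SD, n = 3). From Ndn onward H2A.B had 1.32 times the middle part (1.19 to 1.46) and IgG ChIP 1.27 times (0.885 to 1.77). The 5mC replicates did not share a direction there, at 1.54, 0.689 and 1.03 times.

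**Figure D4:**
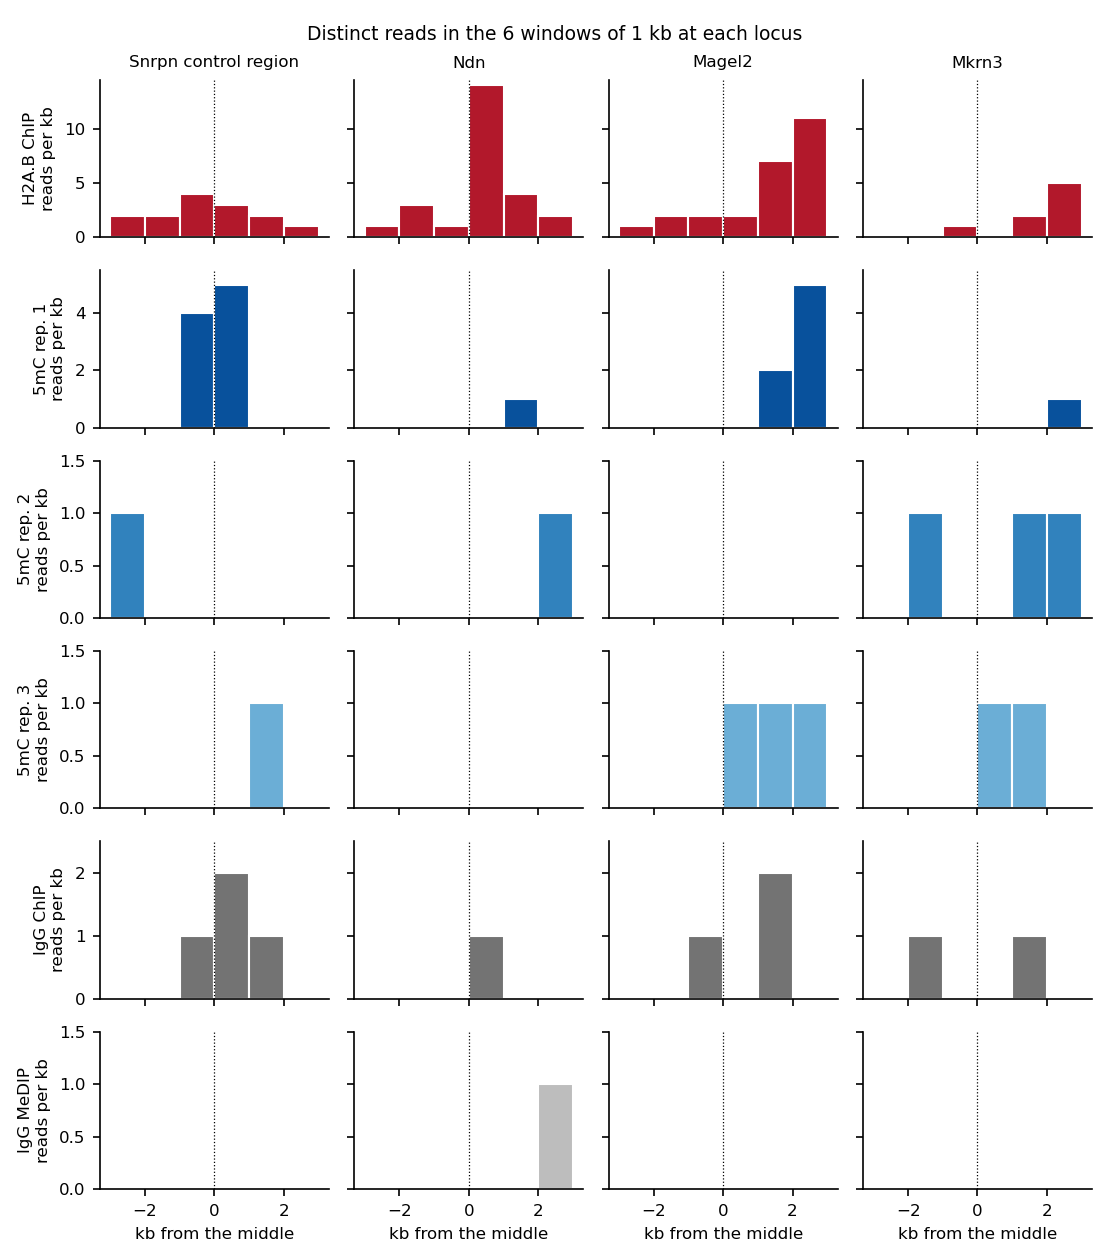
Distinct reads per 1 kb window (y axis, scaled per library) in the 6 windows of each locus, by distance in kb from its middle (dotted line). H2A.B reaches 14 reads in 1 window at Ndn and 11 in 1 window at Magel2, and at the control region 5mC reads in the middle 2 windows come from replicate 1 only, with 4 and 5.

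At the Snrpn control region, the element that sets the imprint of the domain, the 3 5mC libraries differed. Replicate 1 had 9 distinct reads in the 6 kb, all in the middle 2 windows between positions 67148184 and 67149934, with 7 on the plus and 2 on the minus strand. Replicates 2 and 3 had 1 read each, outside these windows, and IgG MeDIP had 0, which allows up to 3. Against the rest of the domain this was 5.12 times (2.33 to 9.76) in replicate 1, 0.418 times (0.0106 to 2.34) in replicate 2 and 0.610 times (0.0154 to 3.41) in replicate 3, a mean of 2.05 ± 2.66 (SD, n = 3). The raised value of replicate 1 was thus not repeated in replicates 2 and 3, although its interval overlapped both of theirs. Without replicate 1 the mean was 0.514. Replicate 1 was also the only 5mC library from the flow cell with reads of 42 bp, so library and flow cell cannot be told apart. Windows with at least 4 and 5 reads, as in the middle 2, made up 2.59% and 1.59% of the genome in replicate 1. The locus values are given without a test, and an exact permutation of 3 libraries against 1 could not go below a two-sided p of 0.5.

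H2A.B had 14 reads at the control region, spread over all 6 windows with 1 to 4 each, which was 1.16 times the rest of the domain (0.634 to 1.95). IgG ChIP had 4 reads, 4.22 times (1.15 to 10.9). Against the 2 Mb on each side the folds were 0.812 (0.444 to 1.36) for H2A.B and 3.14 (0.855 to 8.08) for IgG ChIP. In CPM, H2A.B was 0.234 times IgG ChIP (0.0736 to 0.978).

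At Ndn, H2A.B had 25 reads in the 6 kb, 2.07 times the rest of the domain (1.34 to 3.06). Against the 2 Mb on each side of the domain the fold was 1.45, with an interval that included 1 (0.938 to 2.14). Of these reads, 14 lay in chr7:69493001-69494000, the kilobase starting at the position given for the gene. Windows with at least 14 reads made up 0.546% of the genome. IgG ChIP had 1 read in that same window and no other at the locus, so the CPM ratio to the control over 6 kb, 1.67, had an interval from 0.274 to 68.7. The 5mC replicates had 1, 1 and 0 reads, a mean of 0.329 ± 0.295 times the rest (SD, n = 3), none of them in the window of the H2A.B pile. IgG MeDIP had 1.

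Magel2 also had 25 reads of H2A.B, 2.07 times the rest of the domain (1.34 to 3.06), but at one side of the locus. Against the 2 Mb on each side the fold was again 1.45 (0.938 to 2.14), and in CPM H2A.B was 0.558 times IgG ChIP (0.170 to 2.89). The last 2 windows held 7 and 11 of them, and the 2 kb at the middle stood at 0.994 times the rest (0.271 to 2.55). Of 5mC, replicate 1 had 7 reads, 3.98 times (1.60 to 8.23), in the same last 2 windows, with 2 and 5. Replicate 2 had 0, which allows up to 3, and replicate 3 had 3, so the mean was 1.94 ± 1.99 (SD, n = 3), and 0.915 without replicate 1. IgG ChIP had 3 reads, 3.17 times (0.651 to 9.31), and IgG MeDIP had 0.

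Mkrn3 had the fewest H2A.B reads of the 4 loci, 8, or 0.663 times the rest of the domain (0.286 to 1.31), 5 of them in the last window. The 5mC replicates had 1, 3 and 2 reads, 1.01 ± 0.387 times (SD, n = 3), IgG ChIP had 2 and IgG MeDIP 0. The intervals of H2A.B and of each 5mC and IgG library against the rest of the domain included 1, while H2A.B against the 2 Mb on each side was at 0.464 (0.200 to 0.915). In order of H2A.B level against the rest of the domain, Ndn and Magel2 were level and stood above the control region and Mkrn3 in number. Only the intervals of Mkrn3 and the upper pair failed to overlap, from 0.286 to 1.31 against 1.34 to 3.06. In CPM, H2A.B was 0.268 times IgG ChIP at Mkrn3 (0.0535 to 2.59). Set against IgG ChIP in this way, the intervals of all 4 loci overlapped.

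Strand and shared positions in the domain differed by flow cell. Plus-strand reads made up 53.9% of H2A.B and 62.0% of 5mC replicate 1, against 52.8% and 54.6% in the genome. In the second flow cell they made up 42.5% of 5mC replicate 2, 49.4% of replicate 3, 47.2% of IgG ChIP and 39.0% of IgG MeDIP. The genome's shares were 44.6%, 44.4%, 45.0% and 41.6% in the same order, so the split by flow cell was also present genome-wide. Of the 59 IgG MeDIP positions, 9 (15.3%) were also in 5mC replicate 2, after reads listed in both had been removed, and 5 (8.47%) in replicate 3, while 0 were in replicate 1. Replicates 2 and 3 shared 39 positions, 4.33% of the smaller set, and replicates 1 and 2 shared 3, 0.307%. Shared positions were counted in the domain only, so whether these shares depart from the genome's was not tested. The minus-strand pile in chr7:68418001-68419000 can supply some of them, with 28 positions of replicate 2, 17 of replicate 3 and 2 of IgG MeDIP within 40 bp. How many of the shared positions lay in that pile was not counted. The part of the strand and position differences in the 5mC values was not tested.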

How the data were processed

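The members and the windows were chosen with earlier results of these data known. Per the submitters' processing notes, alignment used Bowtie and build mm9, with FastQC as a quality check. The sources used here do not give the settings. The lists deposited by the authors hold a score per read, which was not used, only each read's position and strand. Left out were 9 malformed lines, 2691 reads of blank strand, and from 5mC replicate 2 the 201263 reads also listed for IgG MeDIP. Reads sharing chromosome, 5′ end and strand were counted once, on chromosomes 1 to 19, X and Y, since PCR copies carried no molecular identifiers, and scaled to the library total (CPM). limma 3.58.1 (R 4.3.3) used a pseudocount worth 0.5 reads of IgG MeDIP, an intensity trend and a threshold of 0.05, with the single IgG library assumed to vary like the 5mC libraries. Ratios have exact Clopper-Pearson 95% intervals (scipy 1.17.1). Procedures were tested on simulated data. The text names the 4 loci, up to 5 10 kb windows per direction with the most extreme bound, the 5 H2A.B maxima with most reads and the 5 reproducible 5mC windows with the highest mean CPM. Alternatives covered duplicates, scaling, filters, flanks, thresholds and left-out replicates.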

Additional observations from a re-analysis of the deposited data

How the results depend on the processing

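Of 147 alternative values for 27 results, 117 stayed the same, 29 moved, and in 1 a fold whose interval excluded 1 changed side. The same meant within the spread, the counting interval or 1.5 times the count. For limma it meant the same direction and the same side of the threshold. Of the 29, 3 were folds at the loci that crossed 1. Of the 117, 11 were folds at the loci that crossed 1 within a spread or interval that already included it. Among them, without replicate 1 the 5mC mean fell to 0.514 at the control region and 0.915 at Magel2. The direction of 5mC against IgG MeDIP held in every alternative run, from 0.37 with all reads to 0.86 without replicate 2, and none passed limma's threshold, with adjusted p from 0.59 to 1.00.

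Flanks of 1 Mb gave domain folds of 0.945 (H2A.B), 0.852 (IgG ChIP), 0.872 (IgG MeDIP) and 0.910 (5mC). Without windows over 10 times a library's median the folds were 0.732 (H2A.B), 0.807 (IgG ChIP), 0.565 (IgG MeDIP) and 0.829 (5mC). Without the read-dense and empty stretches, an alternative chosen after seeing the data, the H2A.B fold was 0.591 and the H2A.B to IgG ratio 0.765. Higher 10 kb windows then numbered 0, H2A.B maxima 6 and 5mC windows 7. That count of 0 was fixed by depth, as no window left held enough H2A.B reads to be called higher. With all reads the ratio was 0.974, higher windows 4 and opposite windows 3, and divided by the flanks the ratio was 0.933. Windows of 100 kb gave 0 higher and 6 lower. H2A.B maxima numbered 28 at 3 times the surroundings and 3 at 20 reads. The 5mC windows numbered 31 to 61 with 1 replicate left out, 10 with the first block of replicate 2 and 89 at 1 read, with 15 opposite windows. In 2 kb per locus, the 5mC mean was 5.12 ± 8.87 (SD, n = 3) at the control region, where only replicate 1 had reads (9, 0 and 0), 0 at Ndn and 0.610 at Magel2 and Mkrn3. H2A.B was then 3.73 at Ndn, 0.994 at Magel2 (reversed) and 0.248 at Mkrn3, and IgG fell to 0 at Ndn (MeDIP) and Mkrn3 (ChIP). The causes were not tested, apart from the smaller windows, samples or regions that an alternative uses by construction.

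No paired analysis was possible because only the 5mC group had replicates. With a median of 0 reads of IgG MeDIP per 10 kb window, depth limits every 5mC comparison of single windows, and every group but 5mC had 1 library.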
